A study of Homo sapiens with 6 samples.

Results

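The genes described here encode the subunits of the mitochondrial respiratory chain and the ATP synthase, the machinery that oxidises NADH and succinate and makes ATP. Members were chosen by name among the protein-coding genes of the table: the NDUFA, NDUFB, NDUFC, NDUFS and NDUFV genes without the NDUFAF assembly factors, SDHA to SDHD, the UQCR genes and CYC1, the COX4I, COX5, COX6, COX7 and COX8 genes, the ATP5 genes, and the 13 protein-coding genes of the mitochondrial DNA. The rule found 100 genes of the 33644 in the table. By complex, it found 45 genes of complex I, 4 of complex II, 10 of complex III, 19 of complex IV and 22 of complex V. Of these, 87 lie on nuclear chromosomes and 13 on the mitochondrial DNA. The name rule also takes in ATP5IF1, an inhibitor of the ATP synthase and not a subunit of its motor. It takes in the read-through genes NDUFC2-KCTD14 and ATP5MF-PTCD1 too. NDUFA4 and its paralog NDUFA4L2 are placed here by name in complex I, although NDUFA4 is known as a subunit of complex IV. NDUFA1, NDUFA8, UQCRFS1 and COX8A were not analysed here.

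By the labels, total RNA from cultures was sequenced in 2 groups of 3 samples: HEK293T, a human embryonic kidney cell line, with genotype WT, and alt-LAMA3 KO derivatives of that line, all at day 0 and with no treatment named. The study asked what loss of alt-LAMA3 does to gene expression. The labels do not say whether the 3 samples of a group were separate cultures or whether the KO was 1 clone, so the p-values may measure only technical spread. The authors' deposited table gives, for each gene, 1 mean normalized count, 1 log2 change with its standard error (SE), a test statistic, a p-value and an adjusted p. It holds no value per sample, so neither the spread between samples nor an overlap of the groups can be shown. Nothing in the table names the group each change is measured from: a positive change is called higher below, meaning higher in the group the authors put in the numerator, and which label that group carries was not given. An adjusted p under 0.05 in the authors' test counts as past the threshold.

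The marker genes went against the label. Of 11 genes that mark HEK293-derived lines and epithelium, 4 were listed at 0 and none reached a mean normalized count above 3.46 per the authors' deposited table. Of 13 T lymphocyte genes, 10 had a mean of at least 72.0, the level that equals 0.0005% of the summed means, and the means over the list ran from 1.83 to 27989. CD3E and CD8A, parts of the T cell receptor complex and of a co-receptor, had means of 13003 and 27074 per the authors' deposited table. In the same comparison 8 of the 11 T lymphocyte genes tested were lower and none was higher, beside 14.8% of all genes tested that were lower, and the part of this in the results below was not tested. Markers of other cells were low: the highest mean was 26.8 for B lymphocyte genes, 20.7 for myeloid genes and 111 for fibroblast genes. LAMA3, the host gene named by the labels, had a mean of 19.0 and a change of -0.62 (SE 0.69, adjusted p 0.578) per the authors' deposited table. That value covers the whole gene, so it does not check the alternative product. The values are therefore described as those of the deposited table, without attributing a direction to the knockout. In bulk RNA, fewer cells of a type and less RNA per cell cannot be told apart.

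The respiratory chain sits in the inner mitochondrial membrane. Complex I takes electrons from NADH and complex II from succinate, and both pass them through coenzyme Q to complex III. From there cytochrome c carries them to complex IV, which reduces oxygen. Complexes I, III and IV pump protons, and complex V, the ATP synthase, uses the returning protons to make ATP. Subunits come from both genomes: the mitochondrial DNA encodes hydrophobic core subunits of complexes I, III, IV and V, while complex II is encoded in the nucleus alone. Lymphocytes that are activated to divide raise both glycolysis and mitochondrial respiration.

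Across the members, most differences did not pass the threshold, and most of those that did were small. Of the 93 members that the authors tested, 19 were higher and 4 lower, and 70 did not pass. The share that passed was 24.7%, beside 29.5% of the 13957 genes tested in the whole table. Among the 79 members with a mean of at least 72.0 it was 27.8%, beside 42.6% of the 8312 genes tested at such means. By direction, 14.7% of all genes tested were higher and 14.8% lower. Only NDUFA4L2 and NDUFV2 passed with a change of at least 2-fold, and NDUFA12 and NDUFA6 joined them at 1.5-fold. Over the 13957 genes tested, 1122 passed with a change of at least 2-fold and 2077 with at least 1.5-fold. The median change over the 93 members was 0.06 on the log2 scale, beside 0 over all genes tested. Over all genes the deposited statistic spread 2.03 times as wide as its error allows without change, and with every error widened by that factor 5 members were higher and 2 lower: MT-ND3, MT-ND4, MT-ND4L, NDUFS5 and NDUFV2, and MT-CYB and UQCRC2. The calls of the other 16 rest on the deposited error. The authors gave no adjusted p for 7 members, all listed at 0 or close to it: NDUFB7, COX4I2 and COX7B2 at 0, COX6A2 at a mean of 0.198, COX8C at 0.355, COX7A1 at 0.744 and COX6B2 at 1.34.

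The share that passed was read within each genome, whose genes were counted at very different depths. Of the 80 nuclear members tested, 12 were higher and 2 lower, a share of 17.5%. Among the 66 nuclear members with a mean of at least 72.0, 13 passed, or 19.7%, beside 42.6% of the 8312 genes tested at such means. All 13 mitochondrially encoded members were tested, and 7 were higher and 2 lower, a share of 69.2%. Among the 189 genes with a mean of at least 10000, which include these 13, the share was 75.7%. The median change was 0.04 in the nuclear members and 0.13 in the mitochondrially encoded ones, where it ran from -0.28 to 0.35. The median SE was 0.11 for nuclear and 0.05 for mitochondrially encoded members, so a change of the same size passed more readily in the latter. The test of a difference between the genomes was not run, since genes are not replicates.

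**Figure D1:**
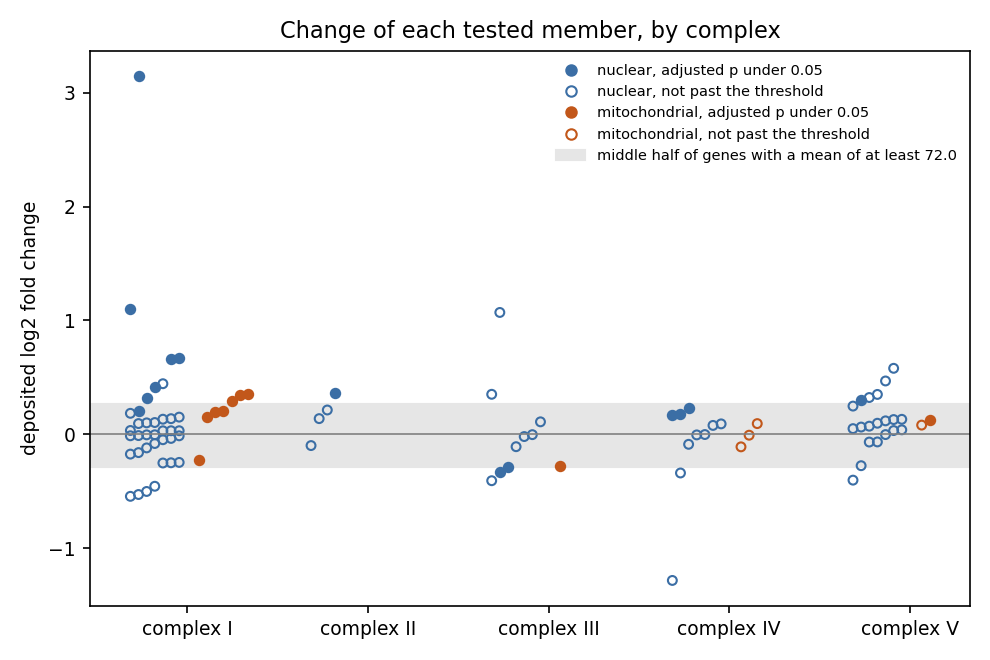
The change of each tested member in the authors' deposited table (log2 scale, vertical axis) by complex (horizontal axis), with filled points past an adjusted p of 0.05 and open points not past it, nuclear genes in blue and mitochondrially encoded ones in orange, over a grey band from -0.29 to 0.27, the quartiles of all tested genes whose mean reached 72.0. The mitochondrially encoded points lie between -0.28 and 0.35, and NDUFA4L2 at 3.15 and NDUFV2 at 1.10 stand highest.

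In level, the mitochondrial transcripts made up most of the signal of the chain. The 13 mitochondrially encoded genes held 10.7% of the summed mean normalized counts and the 87 nuclear members 0.702%. Per kilobase of exon, counting every annotated exon base of a gene once, the median mean normalized count was 97430 for mitochondrially encoded and 169.6 for nuclear members. The ratio of these medians was 574. It was 363 when the longest coding transcript gave the length and 68.4 when the coding sequence did, so its size depended on the length used while its direction did not. Among mitochondrial genes the per-kilobase level ran from 50498 for MT-ND3 to 265044 for MT-CO1. Among nuclear members it ran from 0 to 2742, the value of NDUFS5, whereas ATP5MF was highest by the longest coding transcript and UQCRB by the coding sequence. The nuclear medians per kilobase were 274 for complex II, 241 for complex III, 235 for complex V, 129 for complex I and 86.3 for complex IV, and these differences have no error, because only 1 mean per gene is given. Their order depended on the length used: per kilobase of coding sequence the medians were 2473 for complex III, 1959 for complex V, 1765 for complex II, 1122 for complex IV and 559 for complex I. By exon length, within complex II the per-kilobase level ran from 18.7 for SDHD to 714 for SDHB, and among the nuclear genes of complex III from 6.02 for UQCRHL to 1640 for UQCRC2. The highest nuclear gene of complex IV was COX5A at 2332 per kilobase. In complex V the nuclear genes ran from 5.68 for ATP5MGL, a gene like ATP5MG, to 1917 for ATP5MK.

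**Figure D2:**
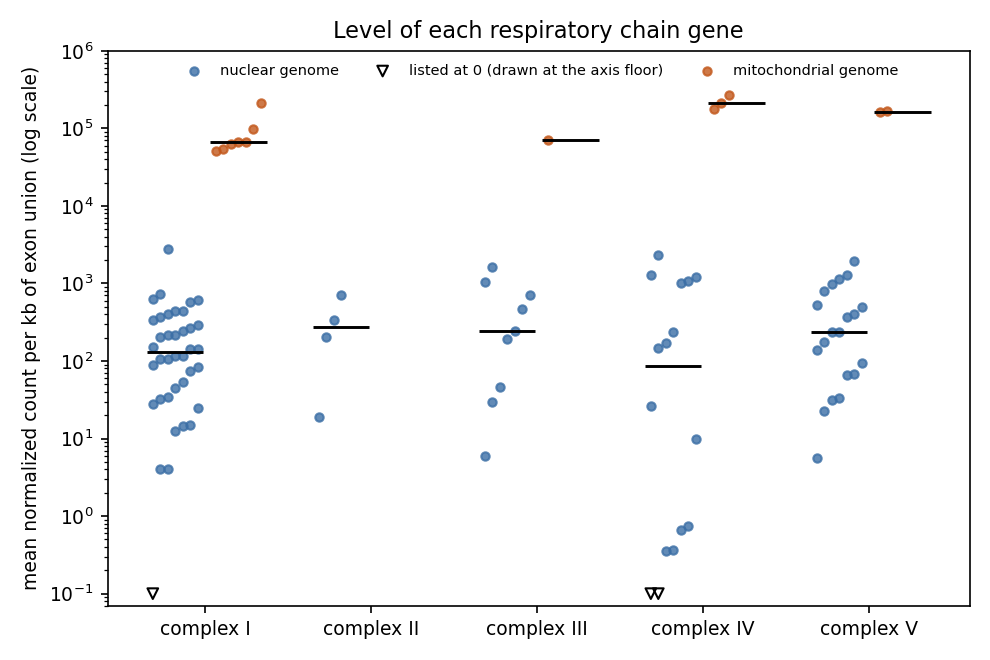
Mean normalized count per kilobase of exon (log axis) for each member by complex, computed from the means per the authors' deposited table, with nuclear and mitochondrially encoded members in separate colours, a bar at each median and triangles at the axis floor for genes listed at 0. Mitochondrially encoded genes lie between 50498 and 265044, and every nuclear member lies at or below 2742.

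The mitochondrial genes of complex I all passed the threshold, 6 higher and 1 lower, at a depth where 75.7% of genes passed. These 7 genes encode membrane subunits of the proton-pumping arm. MT-ND4 had a mean normalized count of 294749 and a change of 0.35 (SE 0.05, adjusted p 5.1e-12) per the authors' deposited table. MT-ND3, at a mean of 17472, had a change of 0.35 (SE 0.04, adjusted p 4.34e-15) per the authors' deposited table. MT-ND4L, whose reading frame overlaps that of MT-ND4, had a mean of 28937 and a change of 0.29 (SE 0.05, adjusted p 2.1e-09). These 3 genes lie next to each other and had the highest changes of the 13. MT-ND2, at a mean of 69362, was higher by 0.19 (SE 0.05, adjusted p 0.000355) and MT-ND5, at 120555, by 0.15 (SE 0.05, adjusted p 0.0240). MT-ND6, the one member encoded on the other strand, had a mean of 33263 and a change of 0.20 (SE 0.06, adjusted p 0.00167). MT-ND1 went the other way, with a mean of 52094 and a change of -0.23 (SE 0.05, adjusted p 3.62e-05). Its 95% interval, -0.33 to -0.13, did not overlap that of its neighbour MT-ND2, 0.10 to 0.28.

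Of the other 6 mitochondrial genes, MT-CYB was lower, MT-ATP6 was higher and 4 did not pass. MT-CYB, the cytochrome b of complex III, had a mean normalized count of 80234 and a change of -0.28 (SE 0.03, adjusted p 2.67e-23) per the authors' deposited table, the smallest adjusted p of all members. Its 95% interval, -0.33 to -0.23, overlapped only that of MT-ND1 among the other 12. The complex IV core genes did not pass the threshold. MT-CO1 had the highest mean of all members, 408697, with a change of -0.01 (adjusted p 0.920). MT-CO2 had a mean of 120981 and a change of 0.09 (adjusted p 0.168), and MT-CO3 a mean of 167463 and a change of -0.11 (adjusted p 0.0857). Of the complex V genes, MT-ATP6, the channel subunit, was higher by 0.13 (mean 113955, SE 0.04, adjusted p 0.0193). MT-ATP8, its partner, had a mean of 33474 and a change of 0.08 (SE 0.04, adjusted p 0.0805). These intervals come from each gene's own error and do not cover an error in the normalization that all genes share.

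**Figure D3:**
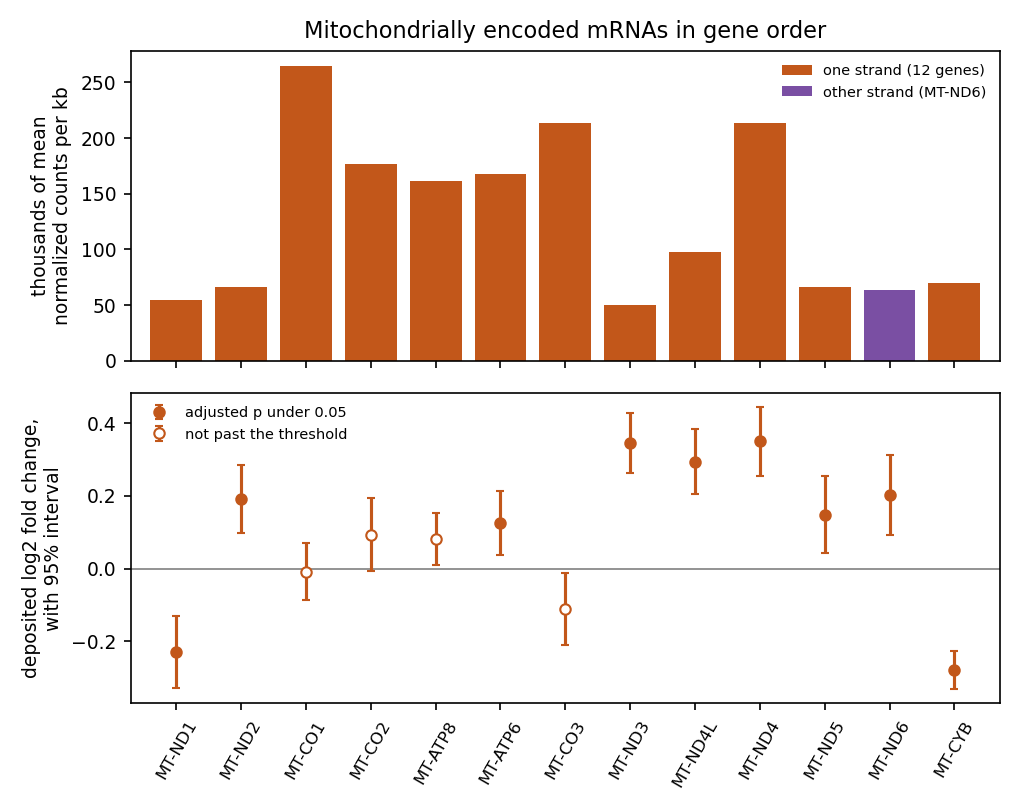
Mean normalized count per kilobase (upper panel, bars) and change (lower panel, log2 scale) of the 13 mitochondrially encoded genes in their order along the mitochondrial DNA, with 95% intervals computed from the authors' deposited changes and errors. MT-ND3, MT-ND4L and MT-ND4 sit together at 0.35, 0.29 and 0.35, while MT-ND1 at -0.23 and MT-CYB at -0.28 lie below 0.

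The mitochondrial genes share transcripts, and some share bases. All but MT-ND6 are read from 1 strand as long precursors, and 2 pairs stay joined as mature messages with overlapping frames. The bases below, from the GENCODE 29 transcripts, are those that count for both genes of each pair. MT-ATP8 and MT-ATP6 share 46 bases, which are 22.2% of MT-ATP8 and 6.75% of MT-ATP6, and MT-ND4L and MT-ND4 share 7. Reads in these stretches could be given to either gene, so the values of a pair are not independent.
MT-ATP8 and MT-ATP6, chrM:8527-8572: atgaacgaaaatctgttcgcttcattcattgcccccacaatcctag
MT-ND4L and MT-ND4, chrM:10760-10766: atgctaa
Within each pair the 95% intervals overlapped: 0.01 to 0.15 for MT-ATP8 and 0.04 to 0.21 for MT-ATP6, and 0.20 to 0.38 for MT-ND4L and 0.26 to 0.44 for MT-ND4.

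Nuclear copies of mitochondrial DNA were counted beside the genes they resemble. MTATP6P1, a pseudogene at chr1:633696-634376 (GRCh38), had a mean normalized count of 14797, or 13% of that of MT-ATP6, and a change of 0.13 (SE 0.05, adjusted p 0.0293) per the authors' deposited table. MTND2P28, at chr1:629640-630683, had a mean of 14273, or 20.6% of that of MT-ND2, and a change of 0.22 (SE 0.04, adjusted p 6.43e-06). The changes of MT-ATP6 and MT-ND2 themselves were 0.13 and 0.19. How reads that match both places were divided was not given, so the values of MT-ATP6 and MT-ND2 are uncertain.

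Of the 37 nuclear members of complex I tested, 7 were higher and none was lower, beside 14.7% of all genes tested for higher calls. The 7 include NDUFA4L2, which is placed in complex I by name alone. When genes with means under 72.0 were left out before adjustment, NDUFB10, an accessory subunit, was lower (change -0.46, adjusted p 0.0441, against 0.0631 with them). NDUFV2, a subunit of the module that takes electrons from NADH, had a mean normalized count of 311.7 and a change of 1.10 (SE 0.15, adjusted p 1.83e-12) per the authors' deposited table. That is 2.14-fold, with a 95% interval of 1.75 to 2.62. NDUFS1, the iron-sulfur subunit of the same module, had a mean of 3233 and a change of 0.32 (SE 0.08, adjusted p 0.000228). NDUFV1, which binds NADH, had a mean of 2236 and a change of 0.21 (SE 0.06, adjusted p 0.00296). So all 3 core subunits of the NADH-oxidising module were higher, by unequal amounts: the interval of NDUFV2, 0.81 to 1.39, lay above those of NDUFS1 and NDUFV1. NDUFS3, NDUFS7 and NDUFS8, core subunits on the path to coenzyme Q that were chosen after the values were seen, did not pass: NDUFS3 had a change of -0.17, NDUFS7 of -0.25 and NDUFS8 of -0.25. The 95% interval was -0.61 to 0.27 for NDUFS3. It was -0.64 to 0.13 for NDUFS7 and -1.03 to 0.53 for NDUFS8.

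Of the other nuclear genes placed in complex I that passed, NDUFS5, NDUFA12 and NDUFA6 encode accessory subunits. NDUFA4L2 is placed there by name alone. NDUFS5 had a mean normalized count of 1503 and a change of 0.41 (SE 0.07, adjusted p 7.7e-08) per the authors' deposited table. NDUFA12, with a mean of 150, was higher by 0.67 (SE 0.19, adjusted p 0.00192), and NDUFA6, with a mean of 215, by 0.66 (SE 0.19, adjusted p 0.00260). Their errors were more than double those of NDUFS5. NDUFA4L2, a paralog of NDUFA4 known as a target of the hypoxia-inducible factors, had the largest change of all members, 3.15 (SE 0.76, adjusted p 0.000237), at a mean of only 11.2. Its fold of 8.87 has a 95% interval of 3.15 to 24.9. NDUFA4, at a mean of 769, had a change of -0.01 (adjusted p 0.978) and an interval of -0.17 to 0.17. The 30 nuclear complex I members that did not pass had changes between -0.55, the value of NDUFB3, and 0.44, the value of NDUFB4. The complex I members with the lowest means after NDUFB7, which was listed at 0, were NDUFA4L2, NDUFB9 at 16.4 and NDUFAB1, the mitochondrial acyl carrier protein, at 20.3.

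Complex II, succinate dehydrogenase, links the chain to the citrate cycle, and 1 of its 4 genes passed, a share of 25% beside 29.5% of all genes tested. SDHA, the flavin-binding catalytic subunit, had a mean normalized count of 2864 and a change of 0.36 (SE 0.07, adjusted p 8.81e-06) per the authors' deposited table. SDHB, the iron-sulfur subunit, had a mean of 1758 and a change of 0.14 (SE 0.06, adjusted p 0.0787). SDHC, a membrane anchor, had a mean of 2922 and a change of -0.10 (SE 0.06, adjusted p 0.264), and SDHD, the other anchor, a mean of 53.1 and a change of 0.21 (SE 0.58, adjusted p 0.848). The intervals of SDHA, 0.22 to 0.51, and SDHC, -0.22 to 0.03, did not overlap. SDHA has nuclear pseudogene copies with counts of their own: SDHAP1, SDHAP4 and SDHAP2 had means equal to 24.1%, 23.0% and 17.9% of that of SDHA. SDHAP4 and SDHAP2 were each higher by 0.44 (adjusted p 0.000130 and 0.00156) and SDHAP1 had a change of 0.20 (adjusted p 0.152), so the value of SDHA is uncertain to that extent.

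Complex III, which passes electrons from coenzyme Q to cytochrome c, was the one complex with lower members and no higher one. Of its 10 genes 3 were lower, beside 14.8% of all genes tested. Among the 8312 genes tested with means of at least 72.0, where calls are more frequent, 1797 were lower. The 3 lower genes had the highest means of the complex. UQCRC2, a core subunit facing the matrix, had a mean normalized count of 8556 and a change of -0.33 (SE 0.04, adjusted p 2.59e-14) per the authors' deposited table. UQCRB, a small subunit near the coenzyme Q site, had a mean of 4555 and a change of -0.29 (SE 0.06, adjusted p 4.93e-05), and MT-CYB, described above, is the third. UQCRC1, the partner of UQCRC2 in the core, had a mean of 151 and a change of 0.35 (SE 0.24, adjusted p 0.298), with an interval of -0.12 to 0.82 that did not overlap that of UQCRC2, -0.41 to -0.25. CYC1, cytochrome c1, had a mean of 59.1 and a change of -0.41 (SE 0.43, adjusted p 0.547). The hinge gene UQCRH had a mean of 339 and a change of -0.02, and its copy UQCRHL a mean of 13.1 and a change of 1.07 (SE 0.66, adjusted p 0.236). The median change of the 10 genes was -0.06.

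In complex IV, cytochrome c oxidase, 3 of 13 members tested were higher and none was lower, a share of 23.1% beside 29.5% of all genes tested. COX5A and COX5B, nuclear subunits on the matrix side, had mean normalized counts of 3290 and 1745 per the authors' deposited table. COX5A was higher by 0.23 (SE 0.05, adjusted p 1.68e-05) and COX5B by 0.18 (SE 0.05, adjusted p 0.00466). COX6C, a small membrane subunit, had a mean of 3076 and a change of 0.17 (SE 0.05, adjusted p 0.00115). The largest of the 3, that of COX5A, was 1.18-fold.

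Several complex IV subunits have tissue-specific versions, and the widely expressed one had the higher mean in each pair. COX4I1 had a mean normalized count of 5098 and a change of -0.00 (interval -0.10 to 0.09) per the authors' deposited table, while COX4I2, the form known from lung and hypoxia, was listed at 0. COX7A2 had a mean of 2442 and COX7A2L, which helps join complexes into supercomplexes, 821, against 0.744 for the muscle form COX7A1. COX7B had a mean of 513 and COX7B2 was listed at 0. COX6A1 had a mean of 35.2 against 0.198 for the muscle form COX6A2, and COX6B1 of 9.14 against 1.34 for the testis form COX6B2. COX6A1 and COX6B1 thus had low means for subunits of every complex IV. COX6B1 had a change of -1.28 with an SE of 0.92 (adjusted p 0.330), so its interval, -3.09 to 0.52, holds both a large fall and a rise.

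In complex V, 2 of 22 members were higher and none was lower, which is 9.09% beside 29.5% of all genes tested. ATP5PB, part of the stalk that holds the catalytic head still, had a mean normalized count of 4402 and a change of 0.30 (SE 0.06, adjusted p 5.93e-07) per the authors' deposited table. The other was MT-ATP6. None of the 5 subunits of the catalytic head and its rotor passed. ATP5F1A had the highest mean of the nuclear members, 12447, and a change of 0.06 (SE 0.05, adjusted p 0.437), with an interval of -0.04 to 0.17. ATP5F1B and ATP5F1C, at means of 408 and 221, had changes of 0.32 (SE 0.18, adjusted p 0.167) and 0.35 (SE 0.23, adjusted p 0.270), as large as that of ATP5PB with 3 or more times its error. The catalytic head holds ATP5F1A and ATP5F1B in equal number, yet the mean of ATP5F1A was far above that of ATP5F1B. The genes ATP5MC1, ATP5MC2 and ATP5MC3 encode the same mature ring subunit with different import sequences. Their means were 621, 1966 and 3541 and their changes 0.25, 0.05 and 0.03, with adjusted p from 0.110 to 0.800. ATP5IF1, the inhibitor, had a mean of 310 and a change of -0.28 (SE 0.17, adjusted p 0.247).

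**Figure D4:**
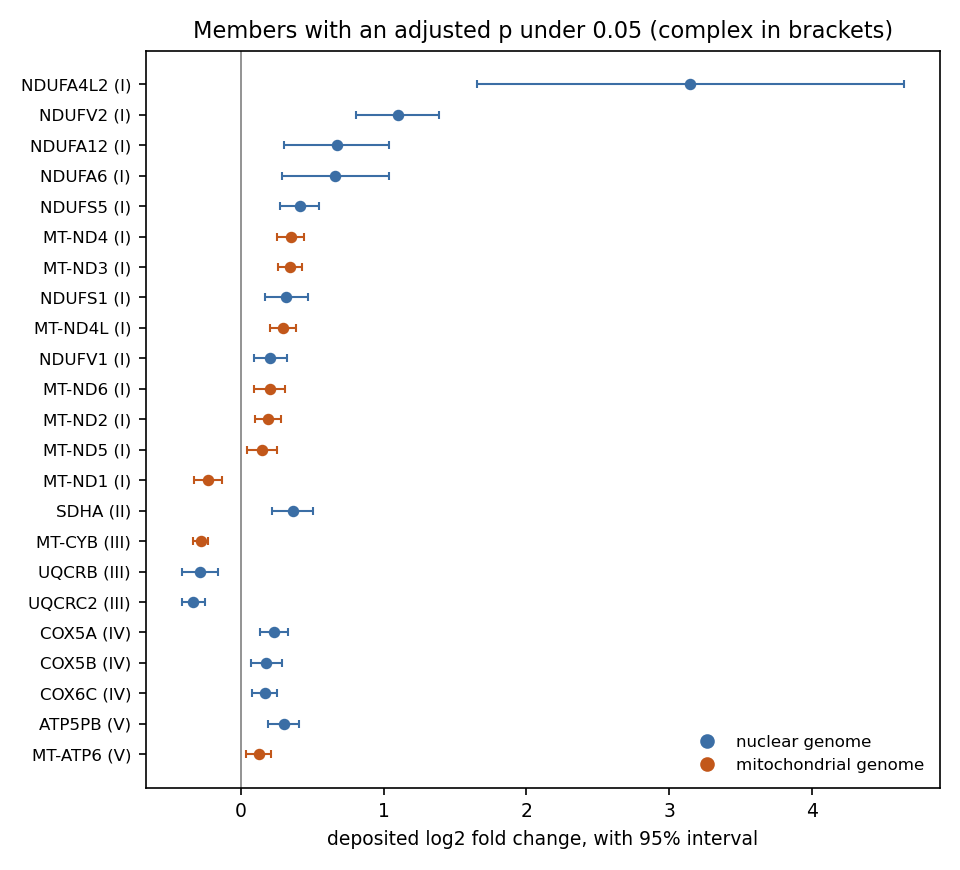
Change of the 23 members past the threshold (log2 scale, horizontal axis), each with the 95% interval from the authors' deposited error. The 4 lower members, UQCRC2, UQCRB, MT-CYB and MT-ND1, have intervals below 0, and NDUFA4L2 has the widest interval.

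Assembly factors add cofactors and join subunits. Of 17 tested for complex I, 3 were higher and 2 lower, a share of 29.4%, which is near the 29.5% of all genes tested. The share was 33.3% for complex III and 19.0% for complex IV, on few genes. DMAC1 was higher by 0.80 (SE 0.15, adjusted p 1.04e-06), NDUFAF8 by 0.77 (adjusted p 0.0441) and NDUFAF6 by 0.60 (adjusted p 0.000324) per the authors' deposited table. NDUFAF7, a methyltransferase, had a change of -0.78 (SE 0.23, adjusted p 0.00377) and TMEM126B of -0.30 (SE 0.07, adjusted p 0.000138). For complex III, 2 of 6 were higher, UQCC2 by 0.50 (adjusted p 1.3e-06) and TTC19 by 0.42 (adjusted p 5.83e-06), although the 3 subunits of that complex that passed were lower. UQCC2 acts in making cytochrome b, the product of MT-CYB. For complex IV, 4 of 21 were higher and none lower. They were COA5 at 0.74, the copper chaperone COX17 at 0.50, COX18 at 0.40 and CMC2 at 0.28, with adjusted p of 0.000359 or less. None of the 4 genes for complex II or the 6 for complex V passed.

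The mobile carriers and the machinery of the mitochondrial DNA had few calls, all lower. Of 15 genes linked to coenzyme Q and cytochrome c, 3 were lower, or 20% beside 14.8% of all genes tested. They were COQ4 at -0.57 (adjusted p 0.00359), COQ10A at -0.35 (adjusted p 0.0312) and COQ10B at -0.27 (adjusted p 0.000108) per the authors' deposited table. Cytochrome c itself, CYCS, had a mean of 6277 and a change of 0.21 (SE 0.10, adjusted p 0.102). Of 25 genes for copying, transcribing and processing mitochondrial DNA and RNA, 1 was lower, or 4% beside the same 14.8%: PDE12, which trims RNA tails, at -0.37 (adjusted p 0.00394). TFAM, which packages the mitochondrial DNA and starts its transcription, had a change of 0.18 (SE 0.13, adjusted p 0.363), and POLRMT, the mitochondrial RNA polymerase, of -0.66 (SE 0.40, adjusted p 0.225). LRPPRC, which stabilises mitochondrial messages, had a change of 0.17 (SE 0.20, adjusted p 0.593). Of 9 regulators of mitochondrial biogenesis tested, 1 was higher and 1 lower, a share of 22.2% beside 29.5% of all genes tested. MYC was higher by 0.73 (SE 0.14, adjusted p 3.07e-06) and YY1 had a change of -0.32 (SE 0.09, adjusted p 0.000997). NRF1 and GABPA, which act on many nuclear genes of the chain, had changes of -0.18 (adjusted p 0.417) and -0.12 (adjusted p 0.0684).

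In a short list of respiratory genes linked to hypoxia, 5 of 6 tested were higher and none lower, beside 14.7% of all genes tested that were higher, with a median change of 1.00. The list was chosen with results of these data known and holds NDUFA4L2, so its count is a description. BNIP3, which directs mitochondria to autophagy, was higher by 1.69 (SE 0.10, adjusted p 5.24e-60) per the authors' deposited table. LDHA, which turns pyruvate into lactate, was higher by 1.01 (SE 0.06, adjusted p 1.06e-68). PDK1, which holds back the entry of pyruvate into the citrate cycle, was higher by 0.98 (SE 0.10, adjusted p 2.6e-22), and the protease LONP1 by 0.51 (SE 0.11, adjusted p 2.79e-05). HIGD1A, the 1 tested gene of the list that did not pass, had a mean of 4052 and a change of -0.03 (SE 0.08, adjusted p 0.845). HIF1A had a change of -0.28 (SE 0.14, adjusted p 0.110).

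The nuclear members' promoters were searched for the binding words of factors known to act on this pathway. RefSeq windows of 250 bases before to 50 bases after the start (GRCh38.p14) matched 67 of the 87 nuclear members, and every word was sought on both strands. The YY1 word ATGGCGG lay in the windows of 21 members, or 31.3%, beside 9.44% of the 14338 protein-coding genes with a window. The NRF1 centre CGCATGCG lay in 10, or 14.9%, beside 3.41%, and the ETS word CCGGAAG, which GABPA binds, in 19, or 28.4%, beside 17%. The NRF1 centre replaced longer NRF1 words that were planned, and it misses forms with another letter in the middle. The word CCAAT lay in 25, or 37.3%, beside 42.6%. Among the 9899 coding genes that were also tested the shares were 12.2% for YY1, 4.53% for NRF1, 22.5% for ETS and 43.9% for CCAAT. The windows of NDUFS1, NDUFV2 and UQCRC2 are shown because these genes passed in opposite directions. The window of NDUFV1, which was also higher, held none of the words and is not shown. The window of NDUFS6 is shown as an example that holds both the NRF1 and the YY1 word. Both words also lay in windows of NDUFA5, NDUFS7, SDHD, COX6A1 and ATP5PF, whose changes ran from -0.34 for COX6A1 to 0.21 for SDHD. Capitals mark the words, or their complements, and each sequence is read 5′ to 3′ along its gene. NDUFS1 has more than 1 window in RefSeq, and the one farthest upstream is shown. The windows are chr2:206159395-206159694 on the minus strand for NDUFS1, chr18:9102449-9102748 on the plus strand for NDUFV2, chr16:21953111-21953410 on the plus strand for UQCRC2 and chr5:1801157-1801456 on the plus strand for NDUFS6.
NDUFS1: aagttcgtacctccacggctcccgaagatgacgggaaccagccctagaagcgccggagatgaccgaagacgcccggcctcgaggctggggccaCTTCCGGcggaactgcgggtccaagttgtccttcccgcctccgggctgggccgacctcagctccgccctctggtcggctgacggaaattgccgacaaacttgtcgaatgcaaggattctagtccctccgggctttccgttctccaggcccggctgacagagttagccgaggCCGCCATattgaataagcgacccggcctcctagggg
NDUFV2: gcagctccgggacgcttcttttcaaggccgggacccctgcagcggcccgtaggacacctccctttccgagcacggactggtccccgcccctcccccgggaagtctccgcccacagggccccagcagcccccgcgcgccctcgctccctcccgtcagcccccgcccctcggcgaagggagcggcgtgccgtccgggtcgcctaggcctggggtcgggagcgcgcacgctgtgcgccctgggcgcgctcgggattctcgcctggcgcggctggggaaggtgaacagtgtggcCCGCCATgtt
UQCRC2: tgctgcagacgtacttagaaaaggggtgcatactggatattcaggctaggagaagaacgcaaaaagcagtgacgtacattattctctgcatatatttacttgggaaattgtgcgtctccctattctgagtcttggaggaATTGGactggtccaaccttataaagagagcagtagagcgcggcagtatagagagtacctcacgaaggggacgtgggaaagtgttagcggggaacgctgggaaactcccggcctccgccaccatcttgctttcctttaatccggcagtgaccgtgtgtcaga
NDUFS6: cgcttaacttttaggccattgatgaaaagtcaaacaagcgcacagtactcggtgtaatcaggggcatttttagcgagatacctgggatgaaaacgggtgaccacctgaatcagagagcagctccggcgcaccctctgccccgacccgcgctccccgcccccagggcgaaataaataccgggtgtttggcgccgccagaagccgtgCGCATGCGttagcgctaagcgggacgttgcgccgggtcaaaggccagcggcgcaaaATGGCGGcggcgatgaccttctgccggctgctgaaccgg
In NDUFS1 the ETS word stands 157 bases before the start and the YY1 word 14 bases after it, and in NDUFV2 the YY1 word stands 40 bases after the start. In UQCRC2 the CCAAT word stands 111 bases before the start, and in NDUFS6 the NRF1 centre stands 45 bases before it and the YY1 word 11 bases after it. NDUFS6, an accessory subunit of complex I, had a mean normalized count of 882 and a change of 0.18 (SE 0.10, adjusted p 0.186) per the authors' deposited table.

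The changes were then set beside the words, with 14.7% of all genes tested higher as background. Of the 21 tested members with the YY1 word 3 were higher, NDUFA6, NDUFS1 and NDUFV2, and of the 41 without it 6 were, with median changes of 0.03 and 0.05. Of the 10 with the NRF1 centre none passed, and of the 52 without it 9 were higher and 1 lower, with medians of 0.07 and 0.03. Of the 18 with the ETS word 2 were higher, and of the 44 without it 7 were higher and 1 lower, with medians of 0.02 and 0.04. Of the 22 with the CCAAT word 2 were higher and 1 lower, and of the 40 without it 7 were higher, with medians of -0.02 and 0.10. A word in a window is a match of letters and not a measured site.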

How the data were processed

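The only file holds 1 comparison for 33644 genes. Its mean normalized count (used as a signal), log2 change with standard error, test statistic (a score), p-value and adjusted p were deposited by the authors, and their columns are named per the file headers. The submitters' processing notes name STAR, Salmon and hg38 without version or role. The counting program, the model, the depth of each library and the direction of the comparison were not given in the sources used here.

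Gene IDs were matched to symbols (33483 of 33644) and to GENCODE 29 exons on GRCh38 (33582). The members and lists were chosen with earlier results of these data known. Recomputed statistics and Benjamini-Hochberg adjusted p-values matched the deposited ones to within rounding. The authors' adjusted p over 13957 genes was used throughout, at a threshold of 0.05, in place of a planned count model, because no counts per sample are in the table used here. Intervals are 95% normal intervals from the deposited log2 change and error. A mean of at least 72.0 is 0.0005% of the summed means; 780 genes with a mean above 0 have a change of exactly 0, so the mean may include libraries outside the comparison.

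Named genes are all 13 mitochondrially encoded ones, up to 4 members per complex and direction that passed with the largest change, extremes of level per kilobase, members at 0 or without adjusted p, paralog groups, SDHA to SDHD, and up to 3 members of each list that passed. Members named outside that rule, the NADH core of complex I and NDUFS3, NDUFS7 and NDUFS8, the catalytic head of complex V and NDUFS6 were chosen after their values were seen. The alternatives were another threshold, a test against a 1.5-fold change, widened errors, other gene filters, centring and other gene lengths. Scripts were tested on simulated data. Python 3.11.15, numpy 2.4.6, pandas 2.3.3, scipy 1.17.1 and matplotlib 3.10.9 were used. The values of 1 member are not reported here.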

Additional observations from a re-analysis of the deposited data

How the results depend on the processing

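Leaving out the filter on low means, keeping protein-coding genes alone, and centring on the median left all 23 members past the threshold, and an adjusted p of 0.01 left 21, without MT-ATP6 and MT-ND5. Tested against a 1.5-fold change, 2 members were higher, NDUFA4L2 and NDUFV2, and 0 lower: 2 and 0 of the nuclear and 0 and 0 of the mitochondrially encoded members, with 4.68% of all genes called. With errors widened by the spread of the statistic over all genes, a factor of 2.03, 5 members were higher and 2 lower: 2 and 1 nuclear, 3 and 1 mitochondrially encoded, with 8.57% of all genes called. Those 7 were MT-ND3, MT-ND4, MT-ND4L, MT-CYB, NDUFS5, NDUFV2 and UQCRC2. The adjusted p of NDUFA4L2 was then 0.277, of SDHA 0.138, of UQCRB 0.20, of MT-ND1 0.187, of NDUFS1 0.275 and of NDUFV1 0.458. By construction these tests ask for a larger change or allow a larger error. With means under 72.0 left out, NDUFA4L2 was not tested and NDUFB10 passed as lower (adjusted p 0.0441). Centring turned MT-CO1 from -0.01 to 0.00318 (adjusted p 0.972) and put MT-ATP8 (adjusted p 0.0404) and ATP5MF (adjusted p 0.0498) past the threshold as higher. The ratio of the median levels per kilobase was 574, and 363 and 68.4 with the other lengths. No paired analysis was possible because the table holds no values per sample; for the same reason the other count models, the replicate block and leaving out each replicate were not run. The deposited error limits what can be seen in members of low mean, where the SE reached 1.05.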

Other observations

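The citrate cycle, which feeds complexes I and II, had 8 of 18 genes past the threshold, 5 higher and 3 lower. All 8 were among the 16 of these genes with means of at least 72.0, where 42.6% of all genes tested passed. IDH2, the mitochondrial isocitrate dehydrogenase that uses NADP, had a mean normalized count of 5674 and a change of 1.00 (SE 0.04, adjusted p 1.61e-115) per the authors' deposited table. FH, fumarase, which acts on the product of complex II, was higher by 0.46 (SE 0.07, adjusted p 6.16e-09), and SUCLG2, a subunit of the succinate-forming ligase, by 0.42 (SE 0.06, adjusted p 8.29e-13). PDHA1 was higher by 0.26 and IDH3A by 0.23. Of the 2-oxoglutarate dehydrogenase complex, DLST and OGDH were lower: DLST had a change of -0.47 (SE 0.18, adjusted p 0.0280) and OGDH of -0.24 (SE 0.08, adjusted p 0.00731). DLD, its remaining subunit, had a change of 0.12 (SE 0.08, adjusted p 0.270). IDH3B, a partner of IDH3A in the NAD-dependent enzyme, had a change of -0.37 (SE 0.15, adjusted p 0.0481). Citrate synthase, CS, had a mean of 338 and a change of -0.37 (SE 0.17, adjusted p 0.101).

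Subunits that stand in equal number in a complex had very unequal means: within complex III, UQCRC2 had a mean normalized count of 8556, UQCRC1 of 151 and CYC1 of 59.1 per the authors' deposited table. The share of a gene's 31-base words that also occur in transcripts of other genes in GENCODE 29 differed widely among members of low mean. It was 0% for 7 of the 21 nuclear members with means under 72.0, among them COX6B1, NDUFB7, CYC1 and NDUFS4. Among the same 21 it was 49.4% for COX6A1 and reached 87.7% for the read-through gene NDUFC2-KCTD14. Over the 21 nuclear members with means under 72.0 the median share was 10.9%, and over the 66 others 11.8%. The mitochondrially encoded genes had a median share of 30.7%, from 3.48% to 66.7%, the value of MT-CO1. The table holds 181 pseudogenes of nuclear members, of which 67 had a mean above 0 and 2 of 12 tested were higher. Among them, COX6A1P2 and COX6B1P4 had means equal to 20.4% and 22.9% of those of COX6A1 and COX6B1. Of 401 pseudogenes of mitochondrially encoded members, 98 had a mean above 0 and 3 of 27 tested were higher, beside 14.7% of all genes tested.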
